A study of Saccharomyces cerevisiae with 6 samples.

Results

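Glycerol metabolism in Saccharomyces cerevisiae was followed through 10 genes named for the steps they carry out: GPD1, GPD2, GPP1 and GPP2 in synthesis, GUT1 and GUT2 in use, GCY1, DAK1 and DAK2 in the route through dihydroxyacetone, and STL1 in import. They were found by systematic name, and 9 of the 10 had a gene model among the 5479 models of the processed table. GUT1, the glycerol kinase gene, had no model under its name and is not analysed here. GPP1 and GPP2 stand in the table under their older names RHR2 and HOR2. Each of the 9 genes had 1 model, of the same length as the gene in the RefSeq annotation of S288C.

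RNA was sequenced from 6 independent chemostat cultures, 3 of the mutant IMY104 and 3 of CEN.PK113-7D, the reference. CEN.PK113-7D carries ACS1 and ACS2, the genes of the acetyl-CoA synthetases. IMY104 lacks both (acs1Δ acs2Δ) and carries pUDC140, a CEN6 ARS4 plasmid with the Enterococcus faecalis genes pdhA, pdhB, aceF and lpd for a pyruvate dehydrogenase complex and lplA and lplA2 for attaching lipoic acid. Every culture was aerobic and limited by glucose (7.5 g/L), held at pH 5.0 and 30 °C, diluted at 0.10 per h and fed lipoic acid at 500 ng/mL. Each strain is 1 construct, so the deletions, the plasmid and any other difference of the strain background cannot be told apart.

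Yeast makes glycerol from the glycolytic intermediate dihydroxyacetone phosphate. Glycerol-3-phosphate dehydrogenase (Gpd1, Gpd2) reduces it with NADH and glycerol-3-phosphatase (Gpp1, Gpp2) removes the phosphate, which gives the cell an osmolyte and a way to reoxidise cytosolic NADH. Glycerol is used again through glycerol kinase and the mitochondrial dehydrogenase Gut2, or through dihydroxyacetone by the reductase Gcy1 and the kinases Dak1 and Dak2. The proton symporter Stl1 takes glycerol up from the medium and the channel Fps1 lets it out. The osmosensing HOG pathway, named for its kinase Hog1, induces several of these genes.

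The values are the authors' own. Their table gives 1 FPKM value per strain, combined over the 3 libraries. By its name FPKM scales fragments to model length and to the fragment total, and how the authors scaled the libraries is not stated. Their table also gives a log2 fold change (positive where IMY104 is higher) and a q-value adjusted over all tested models. A gene was called at a q-value under 0.05. These are bulk cultures, so a lower level in every cell and in a part of the cells cannot be told apart. No value per library was given, so no SD and no depth per library can be stated, the depth is unknown, and the sources used here do not state whether the authors' test used the variation among cultures. The deleted genes went with the labels per the authors' deposited table, with ACS1 at 1094 FPKM in CEN.PK113-7D against 0.882 in IMY104, and ACS2 at 494 and 0.179 FPKM.

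Import, the dihydroxyacetone route and synthesis each had 1 gene that fell in IMY104, and no glycerol gene rose. The importer STL1 was 2.32-fold lower, the glycerol dehydrogenase GCY1 1.83-fold lower and the phosphatase GPP2 1.41-fold lower per the authors' deposited table. Together these were 3 of the 9 tested genes, where 22.6% of all tested models were called in either direction, and with 9 genes this count says nothing about them as a group. By direction, 11.0% of all tested models were called lower and 11.6% higher. The other 6 genes had log2 fold changes between -0.17 and 0.15 and were not called per the authors' deposited table. Among the 9 genes the median log2 fold change was -0.16 and 8 had a value below 0, while the median over tested chromosomal models was 0.0077 and 47.8% of all tested models had a value below 0.

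**Figure D1:**
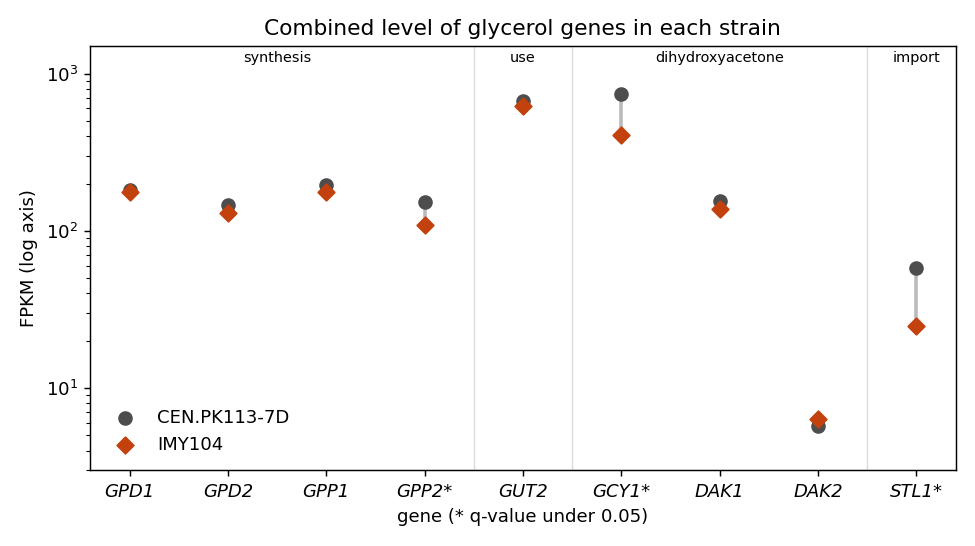
FPKM (log axis) of the 9 glycerol genes in CEN.PK113-7D (circles) and IMY104 (diamonds), 1 combined value per strain with no error given, grouped by role. STL1, GCY1 and GPP2, marked with an asterisk for a q-value under 0.05, have the only calls, and DAK2 is the lowest gene in both strains at 5.75 and 6.38 FPKM.

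The synthesis genes had levels above 66.4% to 73.3% of tested chromosomal models in CEN.PK113-7D. GPD1 (YDL022W, chromosome 4, 410768 to 411943, plus strand of the authors' assembly), the dehydrogenase isoform induced by osmotic stress, had 182 FPKM in CEN.PK113-7D against 176 in IMY104 per the authors' deposited table. Its log2 fold change of -0.05 was the smallest in size among the 9 genes and was not called (q = 0.792) per the authors' deposited table. GPD2 (YOL059W, chromosome 15, 216976 to 218298, plus strand), the isoform tied to NADH reoxidation without oxygen, had 146 and 131 FPKM, with a log2 fold change of -0.16 (q = 0.229, not called) per the authors' deposited table. The level of GPD1 over that of GPD2, per length, was 1.25 in CEN.PK113-7D against 1.35 in IMY104.

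The phosphatase step held the synthesis gene that fell. GPP2 (YER062C, chromosome 5, 278014 to 278766, minus strand), the isoform induced by osmotic stress, went from 153 to 109 FPKM, a log2 fold change of -0.49 (q = 0.00047) per the authors' deposited table. GPP1 (YIL053W, chromosome 9, 255109 to 255861, plus strand), the isoform also made without stress, had 197 and 176 FPKM, with a log2 fold change of -0.16 (q = 0.225, not called) per the authors' deposited table. GPP1 was thus the higher of the pair in both strains, at 1.29 times GPP2 in CEN.PK113-7D and 1.62 times in IMY104, and their FPKM summed to 349.7 and 284.5. Whether the change of GPP2 differs from that of GPP1 was not tested, since the table gives no value per library.

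The phosphatase genes are the most alike of the isogene pairs. Their coding sequences in RefSeq R64 (strain S288C) were 83.2% identical over 752 aligned bases, and the longest identical stretch ran for 26 bases. The same alignment gave 74.9% for GPD1 and GPD2, with a longest stretch of 25 bases, 68.6% for GCY1 and its paralog YPR1, and 61.3% for DAK1 and DAK2. How the authors' counting treated reads that match both members of a pair is not given in the sources used here, so levels within these pairs, and within the GPP pair in particular, are uncertain.

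In the use of glycerol, the analysed gene GUT2 was high and was not called. GUT2 (YIL155C, chromosome 9, 51755 to 53704, minus strand), the mitochondrial dehydrogenase that passes electrons from glycerol 3-phosphate to the respiratory chain, had 674 FPKM in CEN.PK113-7D against 621 in IMY104 per the authors' deposited table. Its log2 fold change was -0.12 (q = 0.451) per the authors' deposited table. The level exceeded that of 90.5% of tested chromosomal models in CEN.PK113-7D and 90.3% in IMY104.

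The route through dihydroxyacetone changed at its first enzyme. GCY1 (YOR120W, chromosome 15, 551338 to 552276, plus strand), an aldo-keto reductase that oxidises glycerol with NADP, fell from 745 to 407 FPKM, a log2 fold change of -0.87 (q = 0.00047) per the authors' deposited table. It was the most highly expressed of the 9 genes in CEN.PK113-7D and stood second to GUT2 in IMY104. Only 73 tested chromosomal models had a lower log2 fold change. GCY1's paralog YPR1, an aldo-keto reductase as well, fell from 166 to 111 FPKM, with a log2 fold change of -0.58 (q = 0.00047) per the authors' deposited table.

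The kinases that follow were not called. DAK1 (YML070W, chromosome 13, 128198 to 129952, plus strand) had 156 FPKM in CEN.PK113-7D against 139 in IMY104, a log2 fold change of -0.17 (q = 0.203) per the authors' deposited table. DAK2 (YFL053W, chromosome 6, 22286 to 24061, plus strand) had 5.75 and 6.38 FPKM, a log2 fold change of 0.15 (q = 0.455) per the authors' deposited table. DAK2 lay above only 1.15% of tested chromosomal models in CEN.PK113-7D and 1.06% in IMY104, and DAK1 was 27.1 times as high in CEN.PK113-7D and 21.7 times in IMY104. The sign of the DAK2 value depended on the scaling, and it was -0.15 after quantile normalization of the FPKM values.

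Glycerol import held the largest fall of the 9 genes. STL1 (YDR536W, chromosome 4, 1506636 to 1508345, plus strand), repressed by glucose and induced by osmotic shock, went from 57.7 FPKM in CEN.PK113-7D to 24.8 in IMY104 per the authors' deposited table. Its log2 fold change was -1.22 (q = 0.00047) per the authors' deposited table, and 45 tested chromosomal models had a lower one. It was the 1 glycerol gene that was called and changed at least 2-fold, where 1.06% of all tested models did so in the lower direction. The level passed that of 36.9% of tested chromosomal models in CEN.PK113-7D and of 12.0% in IMY104.

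The gene of the export channel Fps1 was not called. AQY3, of a channel related to Fps1, was called higher, with a log2 fold change of 0.25 (q = 0.0351) per the authors' deposited table. FPS1, the channel that closes under osmotic stress, had 55.4 FPKM in CEN.PK113-7D against 55.2 in IMY104, a log2 fold change of -0.0040 (q = 0.986) per the authors' deposited table. The FPKM of STL1 and FPS1, which is per length, were thus 57.7 and 55.4 in CEN.PK113-7D and 24.8 and 55.2 in IMY104 per the authors' deposited table.

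**Figure D2:**
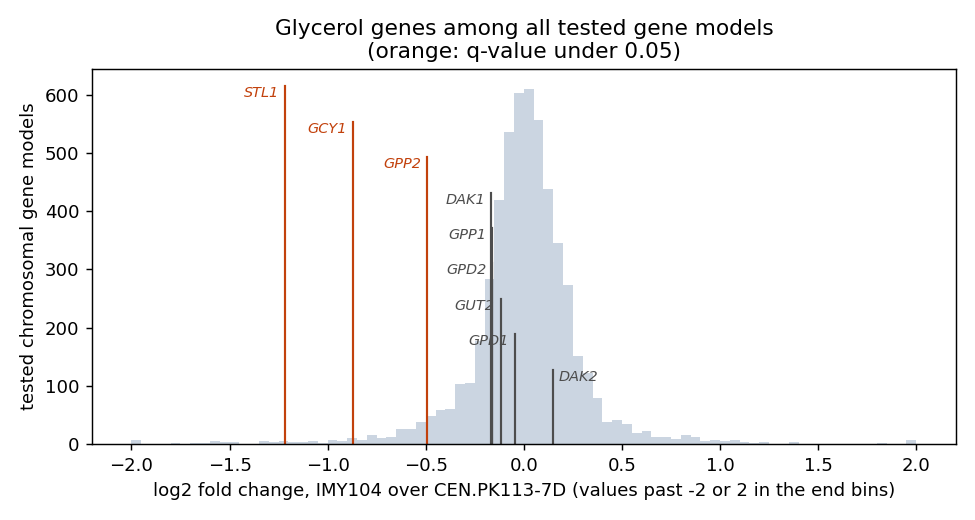
Histogram of log2 fold changes (IMY104 over CEN.PK113-7D, bins of 0.05) over tested chromosomal gene models, with a vertical line at each of the 9 glycerol genes, in orange where the q-value was under 0.05. STL1 at -1.22, GCY1 at -0.87 and GPP2 at -0.49 lie in the lower tail, and the other 6 lie between -0.17 and 0.15; the line heights carry no value.

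The upstream sequences of STL1, GPP2 and GPD1 share the letters GGGACAAA, reported for Hot1, the transcription factor by which the HOG pathway induces glycerol genes. The letters were sought on both strands in the 600 bases before the coding start in RefSeq R64, the genome of S288C and not of the CEN.PK strains, whose sequence may differ. They occurred before 3 of the 9 genes and before 1.78% of 6002 protein-coding genes. Of these 3 genes STL1 and GPP2 fell, and GPD1 had a log2 fold change of -0.05 and was not called per the authors' deposited table. The letters were sought because Hot1 is a known regulator of glycerol genes, so these shares are no finding of enrichment and were not tested. Within 250 bases the letters stood before STL1 alone. The windows of 60 bases around the match are shown 5′ to 3′ on the coding strand, with one of GCY1 around AGGGG, the stress response element bound by Msn2 and Msn4. Capitals mark GGGACAAA or AGGGG or their reverse complements (TTTGTCCC, CCCCT), and the pair overlaps in STL1.
STL1 (chrIV:1507799-1507858, plus strand): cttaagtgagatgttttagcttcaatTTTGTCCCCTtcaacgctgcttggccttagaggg
GPP2 (chrV:281106-281165, minus strand): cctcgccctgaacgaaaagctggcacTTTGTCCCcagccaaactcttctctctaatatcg
GPD1 (chrIV:411545-411604, plus strand): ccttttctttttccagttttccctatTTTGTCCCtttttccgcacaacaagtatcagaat
GCY1 (chrXV:550802-550861, plus strand): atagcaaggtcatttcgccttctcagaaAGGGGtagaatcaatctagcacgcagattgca

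In these windows the match begins 180 bases before the coding start in STL1, 457 in GPP2, 254 in GPD1 and 284 in GCY1. AGGGG occurred in the 600 bases before 7 of the 9 genes, GPP1 and DAK1 being the others, and before 39.7% of the 6002 genes. Within 600 bases it stood before the genes that fell and before GPD1, GPD2, GUT2 and DAK2, which were not called. Within 250 bases it stood before GPD1, GPD2, GUT2, STL1 and DAK2, so of the genes that fell only STL1 kept it. CATGTG, the core letters bound by Ino2 and Ino4, occurred before GPD2 alone of the 9 genes and before 16.4% of the 6002 genes. TGACGTCA, the Sko1 site, occurred before none of the 9 genes and before 0.283% of the 6002 genes. A match describes these letters only, and binding was not measured.

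Genes around the pathway were called in both directions. Of 13 transport, regulatory, isogene and NADH dehydrogenase genes, 4 fell, 1 rose and 8 were not called, with a median log2 fold change of -0.018. Over all tested models 11.0% were called lower and 11.6% higher. Beside YPR1, the gene of the Gpp1 inhibitor YIG1 fell, from 363 to 262 FPKM and a log2 fold change of -0.47 (q = 0.00047) per the authors' deposited table. The glycerol-3-phosphate acyltransferases, which draw the same intermediate into lipids, went opposite ways: GPT2 fell from 241 to 180 FPKM and SCT1 rose from 36.0 to 46.1 per the authors' deposited table. Their log2 fold changes were -0.42 and 0.36 per the authors' deposited table, and GPT2 stood at 6.70 times SCT1 in CEN.PK113-7D and 3.90 times in IMY104.

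Among enzymes that share substrates with the pathway, an NADH dehydrogenase isoform fell. NDE1, the main external NADH dehydrogenase of the mitochondrion, had 1016 FPKM in CEN.PK113-7D against 1042 in IMY104 (log2 fold change 0.04, not called) per the authors' deposited table. Its isoform NDE2 fell, from 120 to 101 FPKM with a log2 fold change of -0.25 and a q-value of 0.0413, per the authors' deposited table. TPI1, the triose phosphate isomerase that competes for dihydroxyacetone phosphate, had 5059 and 4964 FPKM (log2 fold change -0.03, not called) per the authors' deposited table.

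Of 24 HOG pathway genes, from sensors to transcription factors, 4 rose, 1 fell and 19 were not called, with a median log2 fold change of 0.0045. Beside the 22.6% of all tested models that were called, 5 calls among 24 genes are near the background and no result about the pathway. The kinase gene HOG1 had 182 FPKM in CEN.PK113-7D against 203 in IMY104, a log2 fold change of 0.16 (q = 0.248, not called), and HOT1 had 42.6 and 45.0 (log2 fold change 0.08, not called) per the authors' deposited table. Of the phosphatase genes that turn Hog1 off, PTP2 had a log2 fold change of 0.51, called higher, PTP3 -0.37, called lower, and PTC1 -0.08 (q = 0.647, not called), per the authors' deposited table. The transcription factor gene SMP1 rose with 0.46 and the kinase gene RCK2, a target of Hog1, with 0.39 per the authors' deposited table. MSN4, which binds the stress response element, rose with a log2 fold change of 0.31, and its partner MSN2 had -0.22 (q = 0.0701, not called) per the authors' deposited table.

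A list of 13 genes known to be induced by osmotic stress, which leaves out the glycerol genes, had 11 with a model. Of these 9 fell, 1 rose and 1 was not called, with a median log2 fold change of -0.71, where 11.0% of all tested models were called lower and 11.6% higher. The list was chosen with earlier results of these data known, so these counts describe it and test nothing. GRE1, a hydrophilin gene, had a log2 fold change of -2.20 and HSP12, a membrane protein gene of the general stress response, fell from 17769 to 5902 FPKM (log2 fold change -1.59) per the authors' deposited table. SIP18, a hydrophilin gene, fell with -1.56 and the proteinase A inhibitor gene PAI3 with -1.06 per the authors' deposited table. The other 5 that fell had log2 fold changes from -0.96 to -0.63 per the authors' deposited table. The gene that rose was the sodium pump ENA1, named after its value was seen, with a log2 fold change of 0.43 per the authors' deposited table, and near-identical ENA copies make its value uncertain. The SIP18 and PAI3 models are short, at 240 and 207 bp, the full length of those genes in RefSeq R64. They lie close together on chromosome 13, from 605533 to 605772 and from 604676 to 604882. ALD3, among those that fell, rests on a model of 180 bp where the gene in RefSeq R64 has 1521.

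Regulators of glycerol use gave 1 call among 8 genes, no more than the 22.6% called over all tested models. ADR1, the activator of genes for growth on non-fermentable carbon sources, fell from 86.3 to 70.6 FPKM, with a log2 fold change of -0.29 (q = 0.0166) per the authors' deposited table. RSF2, a zinc-finger factor needed for growth on glycerol, had 0.19 (q = 0.164, not called) per the authors' deposited table. The median log2 fold change of the 8 regulators was 0.045.

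**Figure D3:**
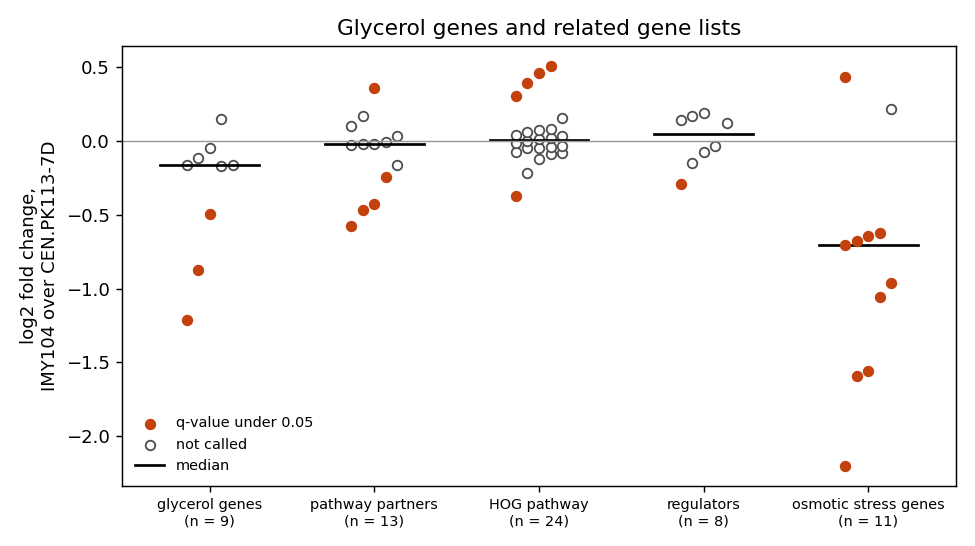
Log2 fold change (IMY104 over CEN.PK113-7D) of each gene in the 9 glycerol genes and 4 related lists, filled where the q-value was under 0.05, with the median as a bar. The HOG pathway genes centre near 0 at a median of 0.0045, and the osmotic stress genes centre at -0.71. The lists were chosen with earlier results of these data known. Sideways offsets only separate points.

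The 6 models immediately adjacent to STL1, GCY1 and GPP2 had log2 fold changes between -0.18 and 0.01 and none was called per the authors' deposited table. On the sides of STL1 stand FIT1, a cell wall mannoprotein gene, with -0.06 and PAD1 with -0.18, neither called per the authors' deposited table. At 2 places from STL1, the chaperone gene HSP31 fell with -0.30 and the decarboxylase gene FDC1 with -0.56 per the authors' deposited table. No model 2 places from GCY1 or GPP2 was called. Over all 9 genes, 5 of 18 adjacent models were called, 2 lower and 3 higher, near the 22.6% called over all tested models. These were GPM2 after GPD1 with a log2 fold change of -0.35, ARG1 after GPD2 with -0.44, IMP21 after GUT2 with 0.44, and AQY3 and ZNF1 on the sides of DAK2 with 0.25 and 0.57, per the authors' deposited table.

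**Figure D4:**
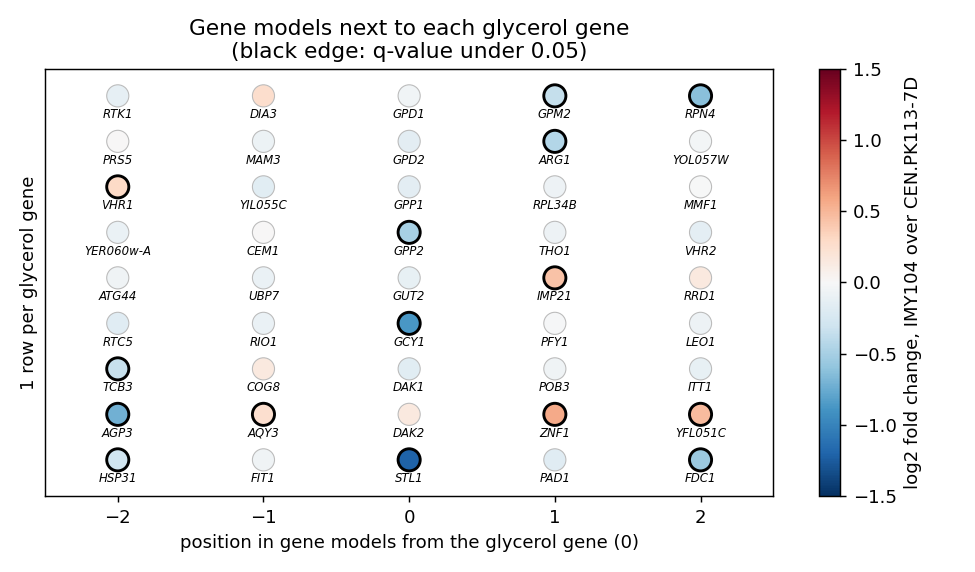
Log2 fold change (colour) of each glycerol gene (position 0) and of the gene models up to 2 places away on the authors' assembly, with a black edge where the q-value was under 0.05. The models immediately next to GPP2, GCY1 and STL1 are pale, between -0.18 and 0.01, while HSP31 and FDC1, 2 places from STL1, were called lower.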

How the data were processed

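Libraries of 6 cultures were compared, 3 per strain. The submitters' processing notes name Cuffdiff, Cufflinks, SAMtools 0.1.7-r510, BWA 0.5.9-r16 and CASAVA 1.8.2 without their roles. The authors made 1 FPKM value per strain from its libraries, per the file headers, and deposited a log2 fold change, a test statistic (a score), a signed fold change (a score), a p-value and a q-value. Neither build nor scaling is given in the sources used here. The table's sample name for IMY104 holds the name of another CEN.PK strain.

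Blank lines (5447) were dropped, and 16 of 5479 models were untested. The deposited log2 fold changes equalled the FPKM ratio within 0.0001, and the q-values Benjamini-Hochberg values within 1e-06. Planned tests across libraries gave way to the authors' test, since no value per library was given. For a gene with several models the longest was used. Names came from RefSeq R64. Per the labels' protocols no strand-marking step was named, so antisense reads cannot be separated. Adjustments and scalings were computed with Python 3.11.15, numpy 2.4.6 and pandas 2.3.3 and tested on simulated data; alignments used Biopython 1.88. The glycerol genes and lists were chosen with earlier results of these data known, so they were described by counts and medians without a list test. Named genes were all glycerol genes, up to 4 called genes per list, partners (FPS1, HOG1, HOT1, ADR1, RSF2, YPR1, TPI1, NDE1, NDE2, MSN2, MSN4), ACS1, ACS2 and adjacent models. ENA1, ALD3, PTC1, models at 2 places and the genes under other observations were named after their values were seen.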

Additional observations from a re-analysis of the deposited data

How the results depend on the processing

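Over the 9 glycerol genes and 4 alternatives (a pseudocount of 1 or 5 FPKM, median centring, quantile normalization), 35 of 36 log2 fold changes kept their direction. The exception was DAK2, at -0.15 after quantile normalization, where the cause was not tested. The count of 3 called genes was the same with Benjamini-Yekutieli adjustment (largest value 0.00432), at q under 0.01 and with models of a mean of at least 10 FPKM only, which left out DAK2. At an unadjusted p under 0.05 by the authors' test there were 3 of the 9 genes, beside 32.2% of all tested models. A Bonferroni adjustment called 0, because the smallest deposited p of 5e-05, shared by 581 models, gives 0.273 over 5463 models. It could thus call no model at all. Requiring a change of at least 2-fold left 1, STL1. At q under 0.01 the regulators had 0 called genes in place of 1 (ADR1, q = 0.0166). The pathway partners had 4 in place of 5, without NDE2 (q = 0.0413). The counts of the HOG pathway and osmotic stress lists stayed at 5 and 10. Searching 250 bases upstream, a length added after seeing the data, left GGGACAAA before STL1 alone, and 800 bases gave the same 3 genes. AGGGG stood before 5 of the 9 genes within 250 bases and 7 within 800. No paired analysis was run, since the cultures were independent. Leaving out a library was not run, because values per library were not given. Depth is unknown, which limits low genes such as DAK2 most.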

Other observations

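GCY1 and YPR1 belong to a family of aldo-keto reductases, and all 6 members looked at fell in IMY104, a set chosen after values were seen and so given no test (11.0% of all tested models were called lower). YJR096W, a xylose and arabinose reductase gene, fell from 333 to 136 FPKM (log2 fold change -1.30) per the authors' deposited table. GRE3, an aldose reductase gene, fell from 361 to 222 FPKM (log2 fold change -0.70) per the authors' deposited table. YDL124W, an alpha-keto amide reductase gene, fell from 882 to 553 FPKM (log2 fold change -0.67) per the authors' deposited table. ARA1, an arabinose dehydrogenase gene, had the smallest fall of these 6, from 1088 to 839 FPKM (log2 fold change -0.38), per the authors' deposited table.

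Methylglyoxal forms from the same triose phosphates as glycerol. Of 3 glyoxalase genes looked at, GLO1, which Hog1 signalling induces, fell from 472 to 361 FPKM (log2 fold change -0.39) per the authors' deposited table. Over all tested models 11.0% were called lower. The 3 are not every gene that acts on methylglyoxal. GLO2 had a log2 fold change of 0.06 and GLO4 -0.20, neither called per the authors' deposited table. Of 4 channel genes looked at, FPS1 among them, 3 had a model and 2 rose, where 11.6% of all tested models were called higher. The water channel gene AQY1 rose from 51.9 to 82.9 FPKM (log2 fold change 0.68) and AQY3, beside DAK2, from 92.7 to 110 (log2 fold change 0.25) per the authors' deposited table. AQY3, with q = 0.0351, would not be called at q under 0.01. Of 7 polyol transporter and dehydrogenase genes 4 had a model and 0 were called by the authors' test, where 22.6% of all tested models were called. At an unadjusted p under 0.05 there was 1, HXT13, beside 32.2% of all tested models. Log2 fold changes ran from -0.06 to 0.65 per the authors' deposited table. The 0.65 was that of HXT13, at only 1.49 and 2.34 FPKM, on a model of 843 bp where the gene in RefSeq R64 has 1695. It was 0.23 for the length-weighted sum of the HXT13 models. All genes of this paragraph too were chosen after their values were seen.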
